A study of Mus musculus with 20 samples.

Results

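The killing genes described here are perforin (Prf1), 3 granzymes (Gzmb, Gzma and Gzmk) and 2 further granule genes (Nkg7 and Ctsw), taken by gene symbol as a fixed set of 6 of the 14633 genes in the table. All 6 were in the table and all 6 passed the filter on low values (1 FPKM or more in at least 5 libraries). Each was at 1 FPKM or more in every library, with a lowest value of 1.67 and a highest of 66.6 FPKM, so no member passed only through a group in which it was high. FPKM counts fragments per kilobase of gene, scaled to the mapped total. It is a value per length, so levels can be set side by side between genes.

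RNA came from HEPA1-6 tumors, a mouse hepatoma line injected under the skin of C57/BL6 mice and left to grow for 4 weeks. All 4 groups thus carried the same transplanted cell line in the same strain, and all received an antibody by injection. The groups were anti-CXCL10 antibody plus the EZH2 inhibitor GSK343 (5 libraries, replicates 1 to 5), anti-CXCL10 antibody (5 libraries), control antibody plus GSK343 (5 libraries) and control antibody (4 libraries, replicates 1, 2, 3 and 5). The labels name 20 samples, and the other one (control antibody replicate 4) was not analysed here. The sources used here do not give the dose, the schedule or the age of the mice. The labels number 5 replicates a group while the design text speaks of 3, and nothing states that they are separate animals. The p-values therefore reflect differences between these samples, which may be partly technical. In the column names the library numbers start again with the anti-CXCL10 groups, so the antibody arms may have been handled as separate sets. A difference from such handling could not be told apart from that of the antibodies. The model is a transplanted line grown outside the liver.

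Cytotoxic T cells and natural killer (NK) cells store perforin and granzymes in secretory granules and release them onto a target cell. Perforin forms pores that let granzymes into the target, where these serine proteases cleave substrates that trigger cell death. CXCL10 is a chemokine that draws activated T and NK cells bearing its receptor CXCR3 into inflamed tissue, and EZH2 is the enzyme of Polycomb repressive complex that methylates histone H3 on lysine 27. The design asks how the inhibitor changes tumor transcripts when CXCL10 can act and when it is blocked.

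The 250 bases before the transcription start are shown for the members with a RefSeq promoter (5 of 6; Ctsw was not shown), as the start-proximal sequences of the genes whose levels are followed here. They are read 5′ to 3′ on the strand of the gene, from RefSeq on GRCm38.p6, with bases that lie in annotated exons left out. Capitals mark matches on either strand to 5 short motifs: RUNX (TGTGGT), T-box (TCACAC), AP-1 (TGANTCA), CRE (TGACGT) and ETS (GGAAGT).
Prf1: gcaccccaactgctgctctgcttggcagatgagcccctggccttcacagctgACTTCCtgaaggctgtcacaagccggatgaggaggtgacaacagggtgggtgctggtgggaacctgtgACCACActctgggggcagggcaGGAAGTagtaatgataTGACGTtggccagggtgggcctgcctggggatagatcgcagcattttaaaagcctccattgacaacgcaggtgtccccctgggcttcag
Gzmb: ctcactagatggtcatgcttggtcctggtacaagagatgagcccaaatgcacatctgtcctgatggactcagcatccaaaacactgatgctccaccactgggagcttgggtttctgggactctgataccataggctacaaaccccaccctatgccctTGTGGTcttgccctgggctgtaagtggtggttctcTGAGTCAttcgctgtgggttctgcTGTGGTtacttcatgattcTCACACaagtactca
Gzma: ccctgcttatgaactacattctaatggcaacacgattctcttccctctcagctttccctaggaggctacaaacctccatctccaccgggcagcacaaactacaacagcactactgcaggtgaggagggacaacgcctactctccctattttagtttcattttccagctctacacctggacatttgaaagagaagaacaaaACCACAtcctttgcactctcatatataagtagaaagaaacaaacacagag
Gzmk: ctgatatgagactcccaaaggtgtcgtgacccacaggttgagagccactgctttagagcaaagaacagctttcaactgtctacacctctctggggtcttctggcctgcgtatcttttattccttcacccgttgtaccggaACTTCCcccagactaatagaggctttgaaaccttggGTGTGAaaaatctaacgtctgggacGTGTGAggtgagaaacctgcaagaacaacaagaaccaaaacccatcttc
Nkg7: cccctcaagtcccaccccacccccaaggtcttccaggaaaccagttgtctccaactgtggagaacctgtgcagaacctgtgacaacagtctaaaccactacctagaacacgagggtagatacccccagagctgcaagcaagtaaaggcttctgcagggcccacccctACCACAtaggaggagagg

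The Prf1 window lies at chr10:61297586-61297832 on the plus strand, the Gzmb window at chr14:56262335-56262584, the Gzma window at chr13:113100982-113101231 and the Gzmk window at chr13:113180966-113181215, these 3 on the minus strand. The Nkg7 window at chr7:43436888-43437072 is on the plus strand and shows 185 bases, since 65 were exon. A RUNX motif, the site bound by Runx3 and its relatives, was matched in 4 of the 5 promoters (Prf1, Gzmb, Gzma and Nkg7), and in 14.0% of 32841 promoter windows of the same length. The T-box motif, bound by T-bet and eomesodermin, was matched in 3 of 5 (Gzmb, Gzmk and Nkg7, whose match lies in the bases left out) and in 12.3% of all windows. Gzmk had the T-box letters at 2 places and Gzmb the RUNX letters at 2 places. The ETS motif was matched in 2 of 5 (Prf1 at 2 places and Gzmk once), against 19.7% of all windows. AP-1 letters stood only in the Gzmb window among the 5 (6.75% of all windows), 58 to 52 bases before the RefSeq start, between its RUNX matches. CRE letters stood only in the Prf1 window among the 5 (6.47% of all windows). A match describes letters in this window and does not show that a factor binds there. The motifs were chosen with these promoter sequences in view, so the shares beside those of all windows are no test of enrichment.

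**Figure D1:**
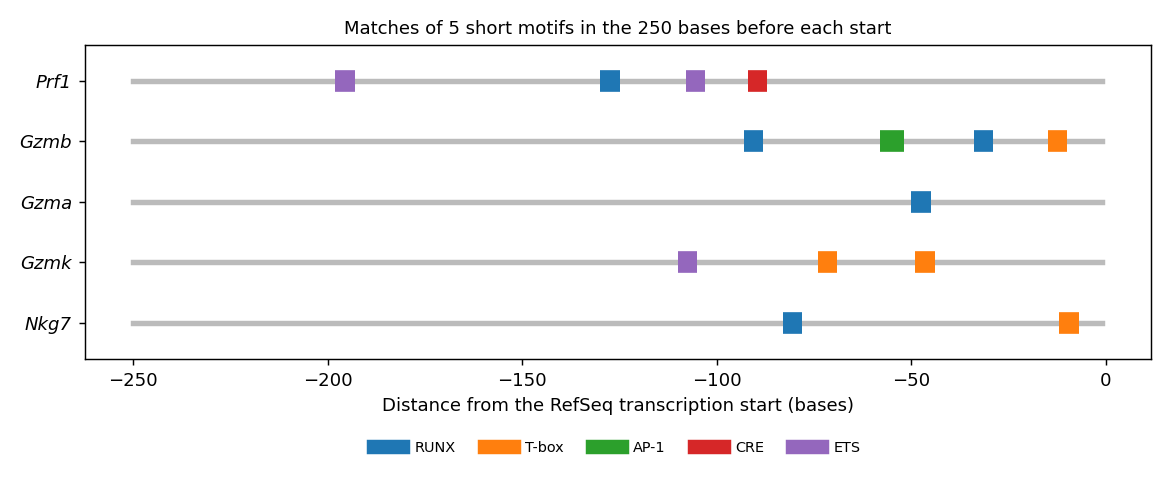
Matches of the 5 motifs in the 250 bases before the RefSeq start of each gene, with distance from the start in bases on the x axis and 1 row per gene. Blocks of the same color are the same motif; Gzmb carries RUNX, AP-1 and T-box matches within its last 93 bases, and RUNX blocks appear in all rows but Gzmk.

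In the deposited table, Prf1 spans chr10:61297836-61304263, Gzmb chr14:56258856-56262260, Gzma chr13:113093825-113100979, Gzmk chr13:113171608-113225908, Nkg7 chr7:43437073-43438246 and Ctsw chr19:5465240-5468498 (GRCm38). Gzmk and Gzma both lie on chromosome 13. The RefSeq start of Gzmb lies upstream of its deposited span, so the Gzmb motifs lie farther from that span than the distances given. The RefSeq start of Gzmk lies inside its deposited span. That span holds the whole of Esm1, an endothelial gene on the opposite strand, with 0 exon bases shared in the GENCODE M21 annotation. Ctsw shares 9 exon bases with Fibp on the opposite strand. The sources used here do not say whether strand was used in counting, so fragments from overlapping genes cannot be told apart. Gzmb lies in a cluster with the closely related Gzmc to Gzmg, and fragments that match several of these genes could have been divided among them.

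FPKM summed to between 533606 and 629679 per library. Read totals are not part of FPKM, so the depth is not known and values carry no counting interval. Replicates of a group correlated at 0.942 to 0.977 over all genes. Skeletal muscle markers (mean log2(FPKM + 1) of 15 genes) set some libraries apart: control antibody plus GSK343 replicates 3, 4 and 5 scored 5.14, 7.05 and 4.96, against 2.26 and 2.80 in replicates 1 and 2 of that group. The anti-CXCL10 libraries scored between 0.75 and 4.30, the anti-CXCL10 plus GSK343 libraries between 1.23 and 3.05, and the control antibody libraries between 1.51 and 2.94. The differences that include this group are given below with and without those 3 libraries for the killing genes and for the counts of the gene lists; without them the group has 2 libraries. Lymphocyte markers were present in every library: the T cell score (17 genes) averaged 2.86 ± 0.19 in anti-CXCL10 plus GSK343, 2.75 ± 0.18 in anti-CXCL10, 3.70 ± 0.47 in control antibody plus GSK343 and 2.68 ± 0.23 in control antibody tumors (SD, n = 5, 5, 5 and 4).

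All 6 killing genes had their highest mean in tumors given control antibody plus GSK343. With control antibody, 5 of the 6 rose with GSK343 (Nkg7, Prf1, Gzmb, Gzma and Ctsw), each by 1.06 to 1.51 on the log2(FPKM + 1) scale, while Gzmk missed the threshold. Over all 14385 genes tested, 4.36% were higher in that comparison (627 genes; limma, adjusted p under 0.05). With anti-CXCL10, GSK343 changed none of the 6 past the threshold, and differences lay between 0.04 and 0.30. No gene at all passed in that comparison (0.0%), while 418 had an unadjusted p under 0.05. In bulk tumor RNA, fewer cells of a type and less RNA per cell cannot be told apart.

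**Figure D2:**
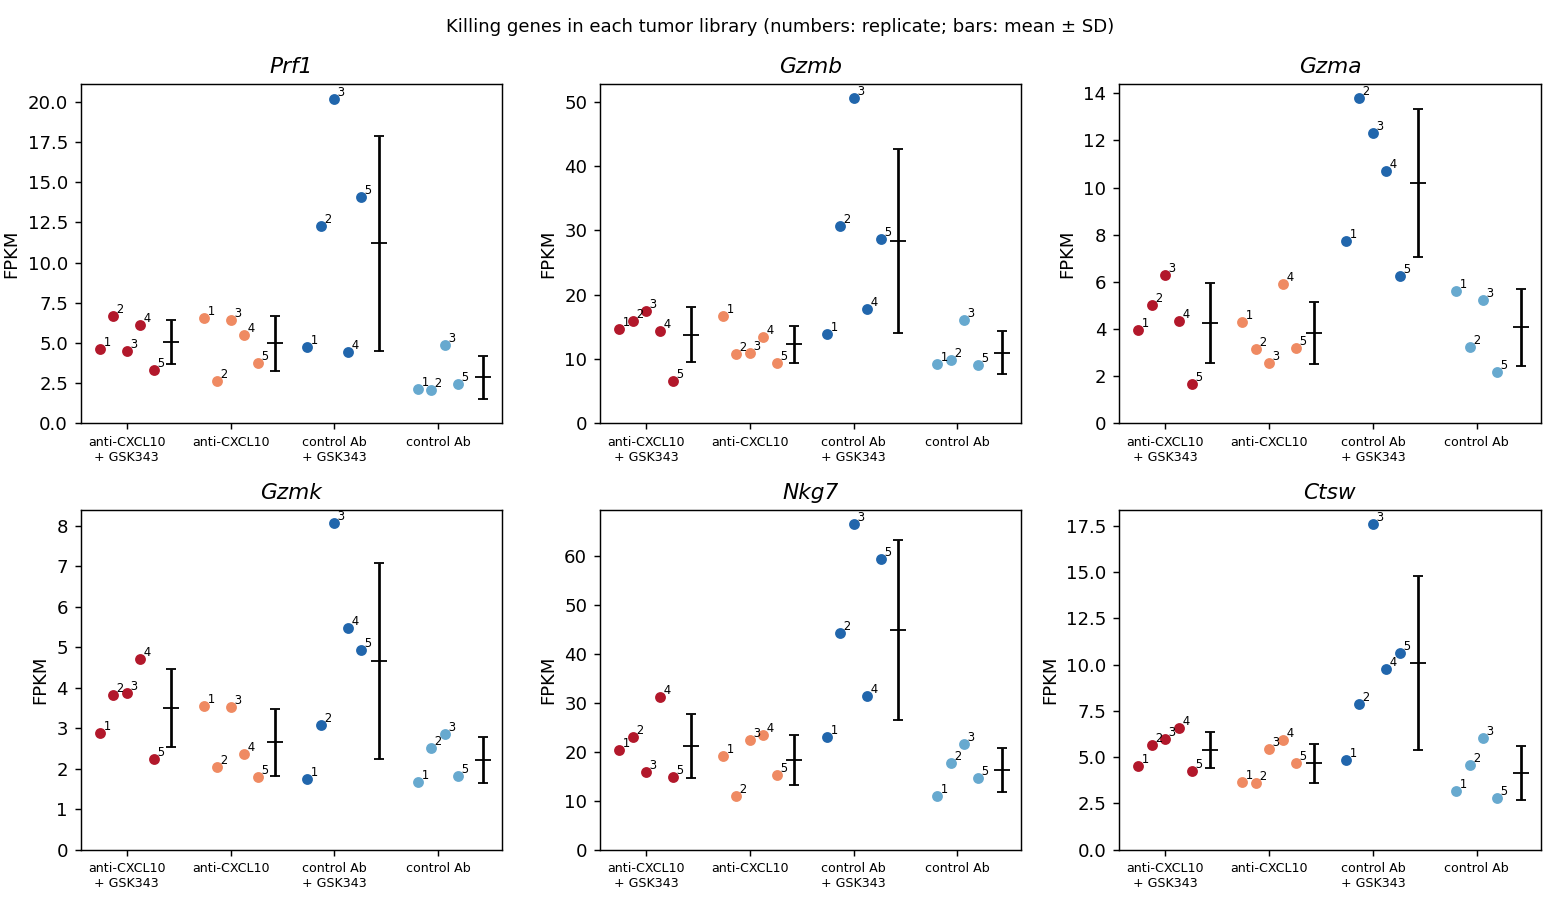
FPKM of each killing gene (1 panel per gene, y axis from 0) in each library of the 4 groups, with points numbered by replicate and bars for mean ± SD. Control antibody plus GSK343 libraries reach the highest values in every panel and are also the most spread out by SD in FPKM, for example 4.42 to 20.2 FPKM for Prf1. By the ratio of highest to lowest value, Gzma is least spread in that group (2.22, against 2.29 to 3.78 in the others).

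Prf1 encodes perforin, the pore-forming protein of the granule. It had 4.62, 6.69, 4.49, 6.14 and 3.33 FPKM in anti-CXCL10 plus GSK343 tumors and 6.56, 2.65, 6.40, 5.48 and 3.77 FPKM in anti-CXCL10 tumors. Control antibody plus GSK343 tumors had 4.75, 12.3, 20.2, 4.42 and 14.1 FPKM, against 2.12, 2.07, 4.86 and 2.44 FPKM in control antibody tumors. Of the 5 control antibody plus GSK343 libraries, 3 lay above every control antibody library, and replicates 1 and 4 lay below control antibody replicate 3, so the groups overlapped. The means were 11.2 ± 6.69 FPKM with control antibody plus GSK343 and 2.87 ± 1.33 FPKM with control antibody (SD, n = 5 and 4), a difference of 1.51 ± 0.36 log2 (SE; limma adjusted p = 0.0201), the largest estimate of the 6. Without the 3 libraries high in muscle markers it was 1.23 ± 0.37 (limma adjusted p = 0.148). With anti-CXCL10, GSK343 left Prf1 at 5.05 ± 1.35 FPKM, against 4.97 ± 1.71 FPKM with anti-CXCL10 (SD, n = 5 each), a difference of 0.04 with a 95% interval of -0.67 to 0.75.

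Gzmb encodes granzyme B, which cleaves its substrates, Bid among them, after aspartate. It had 14.7, 15.9, 17.5, 14.3 and 6.52 FPKM in anti-CXCL10 plus GSK343 tumors and 16.7, 10.8, 11.0, 13.4 and 9.43 FPKM in anti-CXCL10 tumors. Its values were 13.9, 30.6, 50.6, 17.7 and 28.7 FPKM in control antibody plus GSK343 tumors, against 9.18, 9.83, 16.0 and 9.09 FPKM in control antibody tumors. Replicate 1 with GSK343 was below the highest control antibody library and the other 4 were above it. The means, 28.3 ± 14.3 FPKM with control antibody plus GSK343 and 11.0 ± 3.32 FPKM with control antibody (SD, n = 5 and 4), differed by 1.19 ± 0.31 log2 (SE; limma adjusted p = 0.0326). Leaving out the 3 libraries high in muscle markers gave 0.89 ± 0.35 (limma adjusted p = 0.274). Anti-CXCL10 plus GSK343 tumors averaged 13.8 ± 4.25 FPKM and anti-CXCL10 tumors 12.3 ± 2.84 FPKM (SD, n = 5 each), 0.12 log2 apart (95% interval -0.50 to 0.74).

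Gzma encodes granzyme A, a protease that cleaves after lysine and arginine and cuts the SET complex. Its values were 3.95, 5.04, 6.31, 4.33 and 1.67 FPKM in anti-CXCL10 plus GSK343 tumors and 4.31, 3.17, 2.58, 5.91 and 3.20 FPKM in anti-CXCL10 tumors. In control antibody plus GSK343 tumors they were 7.74, 13.8, 12.3, 10.7 and 6.23 FPKM, against 5.61, 3.26, 5.22 and 2.18 FPKM in control antibody tumors. All 5 libraries with control antibody plus GSK343 were above all 4 with control antibody, a separation in this direction that 4.05% of all tested genes had. Gzma averaged 10.2 ± 3.15 FPKM with control antibody plus GSK343 and 4.07 ± 1.62 FPKM with control antibody (SD, n = 5 and 4), a difference of 1.15 ± 0.29 log2 (SE; limma adjusted p = 0.0267). Without the 3 libraries high in muscle markers the estimate was 1.23 ± 0.38, larger than with them but on 2 libraries (limma adjusted p = 0.161). With anti-CXCL10, the means were 4.26 ± 1.70 FPKM with GSK343 and 3.84 ± 1.32 FPKM without it (SD, n = 5 each), 0.09 log2 apart (95% interval -0.49 to 0.66).

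Gzmk encodes granzyme K, a granzyme with trypsin-like cleavage found in memory-type CD8 T cells. It had 2.89, 3.82, 3.87, 4.70 and 2.23 FPKM in anti-CXCL10 plus GSK343 tumors and 3.54, 2.04, 3.52, 2.37 and 1.79 FPKM in anti-CXCL10 tumors. Control antibody plus GSK343 tumors had 1.75, 3.09, 8.07, 5.48 and 4.94 FPKM, against 1.68, 2.52, 2.86 and 1.82 FPKM in control antibody tumors. Replicate 1 with GSK343 was near the lowest control antibody library, and the other 4 were above the highest. The means of 4.67 ± 2.42 FPKM with control antibody plus GSK343 and 2.22 ± 0.561 FPKM with control antibody (SD, n = 5 and 4) differed by 0.72 ± 0.27 log2, which missed the threshold (SE; limma adjusted p = 0.145). Gzmk depended most on the libraries high in muscle markers: without those 3 the difference was 0.07 ± 0.26 (limma adjusted p = 0.929). Without replicate 1 of control antibody plus GSK343 the difference was 0.95 and passed (limma adjusted p = 0.0134). Anti-CXCL10 plus GSK343 tumors averaged 3.50 ± 0.959 FPKM and anti-CXCL10 tumors 2.65 ± 0.83 FPKM (SD, n = 5 each), a difference of 0.30 (95% interval -0.23 to 0.84). Esm1, which lies inside the Gzmk span, had another order of means: 3.64 ± 0.531 FPKM in anti-CXCL10 plus GSK343, 7.80 ± 3.21 in anti-CXCL10, 3.10 ± 0.598 in control antibody plus GSK343 and 3.96 ± 0.869 in control antibody tumors (SD, n = 5, 5, 5 and 4).

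Nkg7 encodes a membrane protein of cytotoxic granules that is needed for their release. It had 20.3, 23.1, 15.9, 31.1 and 14.9 FPKM in anti-CXCL10 plus GSK343 tumors and 19.1, 11.0, 22.5, 23.4 and 15.3 FPKM in anti-CXCL10 tumors. With control antibody plus GSK343 the values were 23.1, 44.2, 66.6, 31.4 and 59.4 FPKM, against 11.0, 17.7, 21.5 and 14.6 FPKM with control antibody. Here too all 5 libraries were above all 4 of control antibody, the closest being 23.1 and 21.5 FPKM. Nkg7 averaged 44.9 ± 18.3 FPKM with control antibody plus GSK343 and 16.2 ± 4.50 FPKM with control antibody (SD, n = 5 and 4), 1.35 ± 0.30 log2 apart, with the smallest adjusted p of the 6 (SE; limma adjusted p = 0.0132). Without the 3 libraries high in muscle markers the difference was 0.98 ± 0.34 (limma adjusted p = 0.212). Means were 21.1 ± 6.53 FPKM in anti-CXCL10 plus GSK343 and 18.3 ± 5.16 FPKM in anti-CXCL10 tumors (SD, n = 5 each), a difference of 0.20 (95% interval -0.39 to 0.78).

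Ctsw encodes cathepsin W, a cysteine protease found mainly in CD8 T cells and NK cells. It had 4.53, 5.64, 5.96, 6.55 and 4.26 FPKM in anti-CXCL10 plus GSK343 tumors and 3.67, 3.59, 5.42, 5.94 and 4.69 FPKM in anti-CXCL10 tumors. Control antibody plus GSK343 tumors had 4.87, 7.85, 17.6, 9.76 and 10.6 FPKM, against 3.19, 4.59, 6.02 and 2.77 FPKM in control antibody tumors. Replicate 1 with GSK343 lay within the control antibody range and the other 4 lay above it. The means were 10.1 ± 4.71 FPKM with control antibody plus GSK343 and 4.14 ± 1.47 FPKM with control antibody (SD, n = 5 and 4), a difference of 1.06 ± 0.25 log2 (SE; limma adjusted p = 0.0211). It was 0.53 ± 0.25 without the 3 libraries high in muscle markers (limma adjusted p = 0.371). Anti-CXCL10 plus GSK343 tumors averaged 5.39 ± 0.970 FPKM and anti-CXCL10 tumors 4.66 ± 1.04 FPKM (SD, n = 5 each), 0.18 log2 apart (95% interval -0.32 to 0.68).

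**Figure D3:**
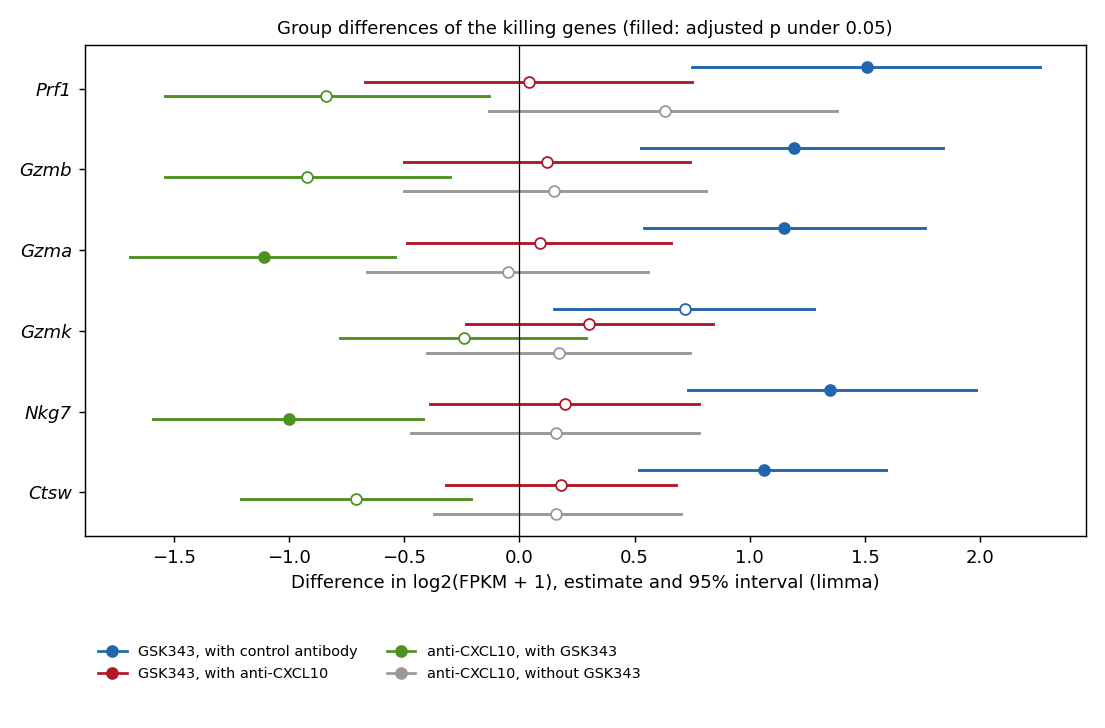
Differences in log2(FPKM + 1) for the 6 killing genes (rows), as limma estimates with 95% intervals, for 4 comparisons; filled points have an adjusted p under 0.05. The 5 filled points for GSK343 with control antibody lie between 1.06 and 1.51, and the estimates for GSK343 with anti-CXCL10 lie between 0.04 and 0.30.

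With all libraries, the effect of GSK343 was smaller with anti-CXCL10 than with control antibody for all 6 members by estimate, but the difference between these effects did not pass the threshold for any. It was -1.46 ± 0.49 for Prf1 (SE; limma adjusted p = 0.204), -1.16 ± 0.41 for Nkg7 (0.222), -1.07 ± 0.43 for Gzmb (0.282), -1.06 ± 0.40 for Gzma (0.248), -0.88 ± 0.35 for Ctsw (0.278) and -0.41 ± 0.37 for Gzmk (0.709), on the log2 scale. By limma 9 genes passed in this test (0.0626% of those tested), and 1862 had an unadjusted p under 0.05. Leaving out the 3 libraries high in muscle markers changed the sign of the Gzmk estimate, to 0.23 ± 0.32 (limma adjusted p = 0.861), as it did with the muscle score as a covariate (0.16 ± 0.33, 0.936). The other 5 then lay between -1.19 (Prf1) and -0.35 (Ctsw), with limma adjusted p of 0.4 to 0.756.

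Anti-CXCL10 was also compared with control antibody among tumors that all received GSK343. Any difference in handling between the antibody arms cannot be told apart from the antibody here. Gzma and Nkg7, 2 of the 6, were lower with anti-CXCL10 plus GSK343 than with control antibody plus GSK343, where 6.64% of all tested genes were lower (955; limma adjusted p under 0.05). These comparisons use the same control antibody plus GSK343 libraries as the one above and are not independent of it. For Gzma, 4 of 5 anti-CXCL10 plus GSK343 libraries were below the lowest control antibody plus GSK343 library, and the difference was -1.11 ± 0.27 (SE; limma adjusted p = 0.0168). Nkg7 differed by -1.0 ± 0.28 (limma adjusted p = 0.0306), with 3 of 5 libraries below the lowest. Gzmb (-0.92 ± 0.29, limma adjusted p = 0.0557), Ctsw (-0.71 ± 0.24, 0.0660), Prf1 (-0.84 ± 0.34, 0.125) and Gzmk (-0.24 ± 0.25, 0.591) missed the threshold. No member had groups without overlap here, against 4.65% of all genes in this direction. Without the 3 libraries high in muscle markers neither call remained: Gzma was at -1.19 ± 0.37 (limma adjusted p = 0.0824) and Nkg7 at -0.63 ± 0.33 (0.286), while Gzmk turned to 0.40 ± 0.25 (0.372) and Gzmb, Prf1 and Ctsw lay between -0.62 and -0.19.

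Without GSK343, anti-CXCL10 changed no member past the threshold (0 of 6; 0.0139% of all genes, 2 genes lower). Prf1 had the largest estimate, 0.63 ± 0.36 (SE; limma adjusted p = 0.752), with 3 of 5 anti-CXCL10 libraries above the highest control antibody library, and the other 5 lay between -0.05 and 0.17. An unadjusted p under 0.05 was reached by 979 genes. Tumors given anti-CXCL10 plus GSK343 likewise differed from control antibody tumors in 0 of 6 members (0.00695% of all genes by limma, 1 gene, with 724 at an unadjusted p under 0.05), with estimates between 0.04 and 0.67.

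The calls for GSK343 with control antibody rested on single libraries to different degrees. Over the 19 fits that each left out 1 library, Nkg7 passed in 18, Ctsw in 16, Gzma and Prf1 in 14 each, Gzmb in 13 and Gzmk in 1. Many of these fits left out a library of the anti-CXCL10 groups, which leaves the estimates unchanged. Every miss of Nkg7, Ctsw, Gzma, Prf1 and Gzmb came from leaving out 1 of the 9 libraries compared. The counts out of 19 therefore overstate how well the calls hold. Between 1 and 6 members passed per fit. Only 1 passed without control antibody replicate 1, without control antibody replicate 5 or without control antibody plus GSK343 replicate 3, and 2 passed without replicate 2 of either group. All 6 passed without control antibody plus GSK343 replicate 1, the library lowest in 4 of the 6 genes for its group. The log2 estimates themselves moved less, between 1.25 and 1.75 for Prf1 and between 1.19 and 1.56 for Nkg7. When the fit held only the 9 libraries compared, 0 of 6 passed, with limma adjusted p between 0.0647 (Nkg7) and 0.278 (Gzmk) and the same estimates. Without the 3 libraries high in muscle markers 0 of 6 passed, and 15 genes passed in all. In anti-CXCL10 with GSK343, Gzma passed in all 19 such fits and Nkg7 in 13, and between 1 and 5 members passed per fit. All misses of Nkg7 there came from leaving out a library of the groups compared.

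**Figure D4:**
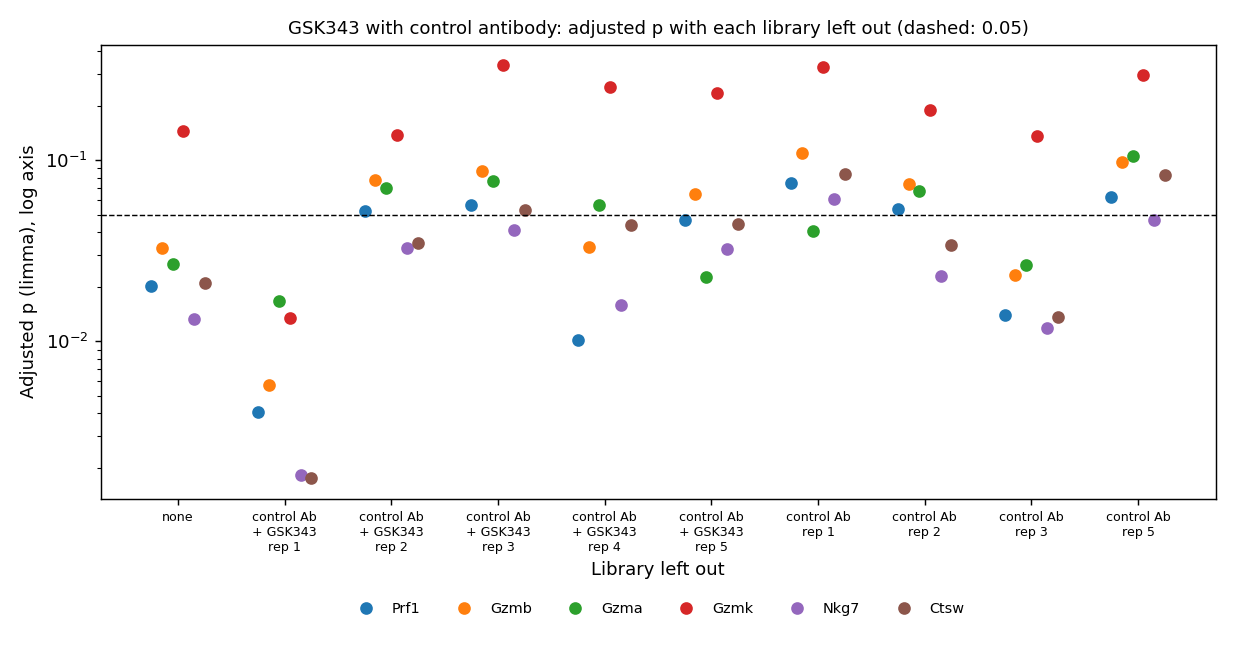
Adjusted p (limma, log axis) of the 6 killing genes for GSK343 with control antibody in the full set and with each of the 9 compared libraries left out in turn (x axis); the dashed line is 0.05. Points of most genes lie above the line without control antibody replicates 1, 2 and 5 and without control antibody plus GSK343 replicates 2 and 3. Gzmk falls below it only without control antibody plus GSK343 replicate 1 (0.0134).

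Ranked by mean FPKM, Nkg7 was first and Gzmb second in each of the 4 groups, and Gzmk was last in each. Nkg7 exceeded Gzmb in 4 of 5 anti-CXCL10 plus GSK343 libraries and in all libraries of the other groups, by 0.55 to 0.71 on a log2 ratio per library on average, although their ranges overlapped in every group. Gzmb was above the next gene in all libraries of every group, by 1.3 to 1.44 on the log2 ratio on average. The next 3, Prf1, Gzma and Ctsw, changed places between groups and their ranges overlapped throughout. In anti-CXCL10 plus GSK343 tumors, for example, Ctsw exceeded Prf1 in 3 of 5 libraries with a log2 ratio of 0.12 ± 0.27 (SD).

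The 6 genes tended to be high or low in the same libraries. Control antibody plus GSK343 replicate 3 was highest in its group for 5 genes, control antibody replicate 3 for 5, and anti-CXCL10 plus GSK343 replicate 5 was lowest in its group for all 6. After subtracting group means, Pearson's r of log2 values over the 19 libraries was between 0.20 (Gzma with Nkg7) and 0.88 (Prf1 with Nkg7) over the 15 pairs, with a median of 0.68. Gzma stood lower with Gzmk (0.30), Prf1 (0.30), Nkg7 (0.20) and Ctsw (0.37) than with Gzmb (0.62). These r values describe libraries that share tissue makeup and scaling, and carry no test.

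Among all tested genes, those most like each member by the same measure were named 3 per member. For Nkg7 they were the T cell receptor complex chains Cd3g (0.949) and Cd3d (0.945) and the chemokine Ccl5 (0.901). For Prf1 they were Cd3g (0.885), the chemokine Ccl4 (0.880) and Nkg7 (0.879). Gzmb was closest to interferon gamma, Ifng (0.906), then to Cd48 (0.879) and the cytokine Il15 (0.855), and Ctsw to the T cell receptor constant gene Trac (0.934), Gde1 (0.894) and Cst7 (0.894). Gzma was closest to Sdc1 (0.832), whose levels before subtracting group means ran the other way (r = -0.391), then to Pygl (0.803) and Gzmc (0.788). Gzmk was closest to Actg-ps1 (0.909), Gm8399 (0.907) and the actin-severing gelsolin Gsn (0.883), none of them a lymphocyte marker in the lists used.

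T and NK cell markers moved with the killing genes. With GSK343 and control antibody, 13 of 17 T cell markers and 5 of 7 tested NK cell markers were higher by limma, with medians of 1.01 and 1.11 log2 against -0.03 over all tested genes. Of all tested genes, 4.36% were higher. The NK cell genes Ncr1 and Klrb1c were not analysed here, and Klra7 and Klra8 did not pass the filter. The 7 tested genes can also be expressed by T cells, so the NK cell score does not single out NK cells. Among T and NK cell markers, 0 of 17 and 0 of 7 passed without the 3 libraries high in muscle markers, and the medians were 0.74 for each list; in the fit of the 9 compared libraries alone 6 T cell and 2 NK cell markers passed. The T cell score was 3.70 ± 0.47 with control antibody plus GSK343 and 2.68 ± 0.23 with control antibody (SD, n = 5 and 4), with no overlap (exact permutation test, two-sided p = 0.0159, the smallest that 5 against 4 libraries allow, adjusted p = 0.0794 over 10 tests). The NK cell score was 2.88 ± 0.53 with control antibody plus GSK343 and 1.86 ± 0.24 with control antibody (exact permutation p = 0.0317, adjusted p = 0.106). The 2 control antibody plus GSK343 libraries not high in muscle markers, replicates 1 and 2, had T cell scores of 3.04 and 3.73, against 2.36 to 2.89 with control antibody, and NK cell scores of 2.04 and 3.02, against 1.59 to 2.16 with control antibody. These 2 libraries alone were not tested. With anti-CXCL10 the T cell scores were 2.86 ± 0.19 with GSK343 and 2.75 ± 0.18 without it (SD, n = 5 each; exact permutation p = 0.310), and the NK cell scores were 2.11 ± 0.07 with GSK343 and 2.04 ± 0.14 without it (exact permutation p = 0.325). Among GSK343-treated tumors the T cell score was 2.86 with anti-CXCL10 and 3.70 with control antibody (exact permutation p = 0.0159, adjusted p = 0.0794). In that comparison 13 of 17 T cell and 5 of 7 NK cell markers were lower by limma, 8 and 3 in the fit of the 10 compared libraries alone, and 0 and 0 without the 3 libraries high in muscle markers. Of all tested genes, 6.64% were lower with all libraries.

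**Figure D5:**
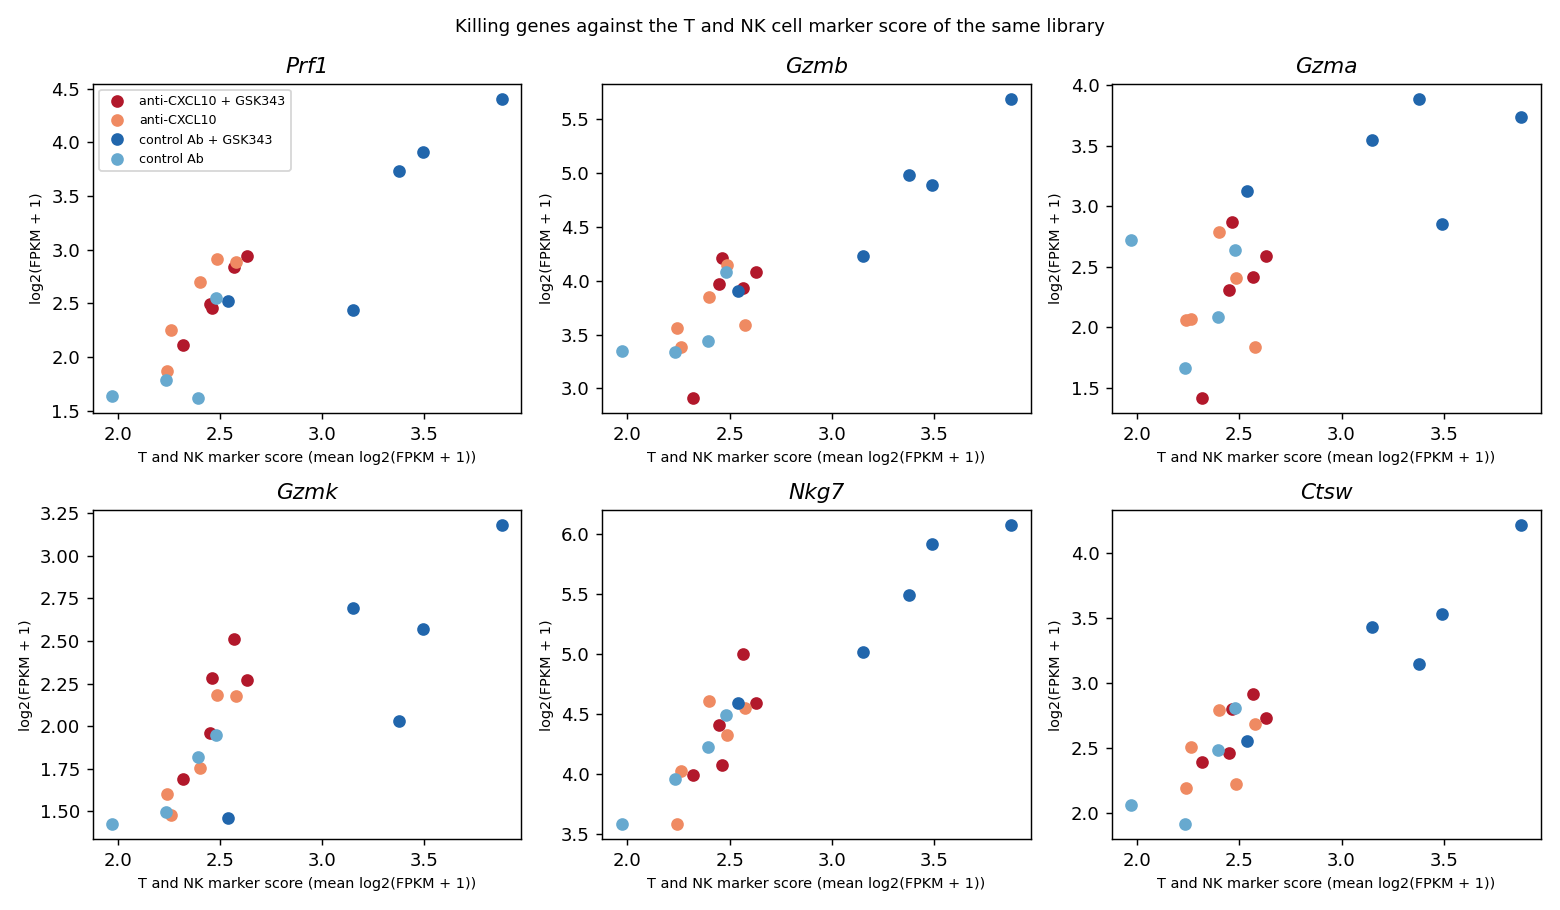
log2(FPKM + 1) of each killing gene (y axis) against the mean of the T cell and NK cell marker scores of the same library (x axis), 1 panel per gene and 1 point per library colored by group. Of the 5 control antibody plus GSK343 libraries, 4 lie to the right of all other points, and the highest value of every killing gene is among them.

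Subtracting this score from each library gives each member relative to lymphocyte markers. For GSK343 with control antibody the relative differences were 0.49 ± 0.24 for Prf1 (SE; limma adjusted p = 0.0599), 0.34 ± 0.21 for Nkg7 (0.13), 0.17 ± 0.23 for Gzmb (0.472), 0.13 ± 0.29 for Gzma (0.661), 0.04 ± 0.20 for Ctsw (0.857) and -0.30 ± 0.21 for Gzmk (0.171). None of the 6 passed, although 90.1% of all tested genes did, nearly all of them lower because the score was subtracted and only 0.299% higher. Their 95% intervals ran from -0.01 to 0.99 for Prf1 and from -0.72 to 0.13 for Gzmk. Prf1 passed as higher in 3 of the 19 fits that each left out 1 library. These were without control antibody plus GSK343 replicate 4 (0.70, limma adjusted p = 0.00689), without control antibody replicate 3 (0.64, 0.0250) and without control antibody plus GSK343 replicate 1 (0.52, 0.0471). Since 12423 to 13279 genes were called per fit, the adjustment barely raised p (limma unadjusted p = 0.00557, 0.0217 and 0.0434). These 3 passes are therefore close to unadjusted calls. With the 3 libraries high in muscle markers left out, Gzmk was lower relative to the score, at -0.61 ± 0.23 (limma adjusted p = 0.0280), Prf1 was at 0.54 ± 0.27 (0.0746), and the other 4 lay between -0.16 and 0.54 and did not pass. The share of all genes called in that fit is not given here. With all libraries the median relative difference over all genes was -1.05, so a lower call does not set Gzmk apart. For anti-CXCL10 with GSK343, Gzmk was 0.56 ± 0.20 higher relative to the score (limma adjusted p = 0.0115), where 81.7% of all genes were called higher; without the 3 libraries it was 0.87 ± 0.22 (limma adjusted p = 0.0191). The other 5 lay between -0.31 and 0.09 with all libraries and between -0.72 and 0.29 without those 3, and did not pass.

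The remaining genes of the killing pathway were read from lists by role. Their counts stand beside 4.36% of all tested genes higher with GSK343 and control antibody. For anti-CXCL10 with GSK343, 6.64% of all tested genes were lower. Of the other granzymes and death ligands, 2 of 7 tested genes were higher with GSK343 and control antibody, with a median of 0.83 log2 against -0.03 over all genes. Gzmc, a granzyme of the Gzmb cluster, had 10.2 FPKM with control antibody plus GSK343 and 4.07 FPKM with control antibody (1.15 ± 0.25 log2, limma adjusted p = 0.0139), and the death ligand Tnf had 2.31 FPKM with control antibody plus GSK343 and 0.675 FPKM with control antibody (0.88 ± 0.23, 0.0317). Tnfsf10, which encodes TRAIL, and Gzmf missed the threshold at 0.76 ± 0.23 (limma adjusted p = 0.0585) and 1.36 ± 0.45 (0.0963). Fasl did not pass the filter, and Gzmm, Gzmn and Lta were not analysed here. With anti-CXCL10 plus GSK343 against control antibody plus GSK343, 1 of the 7 was lower, Gzmc, with all 5 libraries below the lowest (-1.21 ± 0.24, limma adjusted p = 0.00562). None of the 7 passed in either comparison without the 3 libraries high in muscle markers. Gzmc was then at 1.03 ± 0.35 for GSK343 with control antibody (limma adjusted p = 0.193) and at -1.09 ± 0.33 for anti-CXCL10 with GSK343 (0.0807), and Tnf at 0.38 ± 0.19 with control antibody (0.381). With the compared groups alone Gzmc passed in both and Tnf in neither.

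Of 15 genes for loading and releasing granules, 6 were higher with GSK343 and control antibody and 0 lower (median 0.22). Ctsc, the cathepsin C that activates granzymes, had 120.0 FPKM with control antibody plus GSK343 and 58.1 FPKM with control antibody (1.04 ± 0.19 log2, limma adjusted p = 0.00520), and Cst7, the cystatin F that inhibits cathepsins, had 12.8 FPKM with control antibody plus GSK343 and 3.34 FPKM with control antibody (1.53 ± 0.33, 0.0130). Coro1a (0.81 ± 0.18, limma adjusted p = 0.0151) and Rasgrp1 (0.60 ± 0.16, 0.0313), which act in lymphocyte signaling and actin, were also higher, as were Srgn, the proteoglycan core of granules, and Rab27a, a GTPase of granule docking. Several of these genes are also expressed by macrophages and other cells. The other 9 genes of the list lay between -0.13 (Ctsl) and 0.50 (Unc13d) and did not pass. Among GSK343-treated tumors, 4 of the 15 were lower with anti-CXCL10 than with control antibody (Srgn, Ctsc, Cst7 and Coro1a), against 6.64% of all tested genes. None of the 15 passed in either comparison without the 3 libraries high in muscle markers, where the median with control antibody was 0.13, Ctsc was at 0.75 ± 0.24 (limma adjusted p = 0.174) and Cst7 at 1.03 ± 0.36 (0.219). With the compared groups alone 0 of 15 were higher with GSK343 and control antibody and 2 of 15 lower with anti-CXCL10 and GSK343.

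A list named for granzyme inhibitors and substrates held 14 genes, though Serpina3g and Igf2r in it are not established as either. Of these 14, 2 were higher with GSK343 and control antibody and 0 lower (median 0.04). Both were serpins: Serpina3g had 90.0 FPKM with control antibody plus GSK343 and 29.7 FPKM with control antibody (1.49 ± 0.30 log2, limma adjusted p = 0.00783), and Serpinb9b had 15.0 FPKM with control antibody plus GSK343 and 7.52 FPKM with control antibody (0.84 ± 0.23, 0.0384). Serpinb9, the inhibitor of granzyme B, missed the threshold at 0.76 ± 0.22 (limma adjusted p = 0.0544). The granzyme substrates Bid, at 0.07, and Parp1, at -0.28, did not pass. Among GSK343-treated tumors, Parp1 had 44.2 FPKM with anti-CXCL10 and 33.5 FPKM with control antibody (0.38 ± 0.09, limma adjusted p = 0.0172), while Serpina3g (-1.23 ± 0.28, 0.0117) and Serpinb9b (-0.82 ± 0.22, 0.0225) were lower. With GSK343 and control antibody, 0 of 14 passed without the 3 libraries high in muscle markers (Serpina3g 1.36 ± 0.39, limma adjusted p = 0.131; Serpinb9b 0.44 ± 0.24, 0.447) and 0 of 14 with the compared groups alone. Among GSK343-treated tumors Parp1 (0.44 ± 0.13, limma adjusted p = 0.0743), Serpina3g (-1.10 ± 0.37, 0.105) and Serpinb9b (-0.43 ± 0.24, 0.309) missed the threshold without those libraries, and Parp1 and Serpina3g passed with the compared groups alone.

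Of 8 tested transcription factors of cytotoxic cells, 2 were higher with GSK343 and control antibody and 0 lower (median 0.40). Stat4, which acts downstream of interleukin 12, had 5.43 FPKM with control antibody plus GSK343 and 1.98 FPKM with control antibody (1.10 ± 0.23 log2, limma adjusted p = 0.00863), and Zeb2 had 4.20 FPKM with control antibody plus GSK343 and 1.45 FPKM with control antibody (1.01 ± 0.26, 0.0313). Runx3, one of the factors that bind the RUNX motif, missed the threshold at 0.50 ± 0.14 (limma adjusted p = 0.0513). Among GSK343-treated tumors, 4 of 8 were lower with anti-CXCL10 than with control antibody: Runx3 (-0.81 ± 0.14, limma adjusted p = 0.00242), Nfil3 (-1.01 ± 0.20, 0.00508), Stat4 (-1.03 ± 0.21, 0.00672) and Zeb2 (-0.98 ± 0.25, 0.0190). For GSK343 with control antibody, 0 of 8 passed without the 3 libraries high in muscle markers (Stat4 1.14 ± 0.32, limma adjusted p = 0.128; Zeb2 0.63 ± 0.30, 0.363). Runx3 (-0.77 ± 0.16, limma adjusted p = 0.0206) and Nfil3 (-1.03 ± 0.26, 0.0433) were still lower with anti-CXCL10 and GSK343, and Stat4 (-1.07 ± 0.31, 0.0657) and Zeb2 (-0.60 ± 0.29, 0.235) missed. With the compared groups alone Stat4 was the 1 factor higher with control antibody, and Runx3, Nfil3 and Stat4 were lower with anti-CXCL10 and GSK343. Tbx21, which encodes T-bet, did not pass the filter.

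Markers of other cell types moved in the same libraries, and their part in the results on the killing genes was not tested beyond the muscle markers above. Of all 14385 tested genes, 4.36% were higher with GSK343 and control antibody, and 160 genes were lower. With GSK343 and control antibody, 9 of 11 macrophage markers were higher (scores 5.50 to 5.91 with control antibody plus GSK343, 4.32 to 5.25 with control antibody), as were 4 of 4 tested B and plasma cell markers (scores 4.67 to 6.41 with control antibody plus GSK343, 1.11 to 4.39 with control antibody). Of these macrophage and B and plasma cell markers, 0 of 11 and 0 of 4 passed without the 3 libraries high in muscle markers, with medians of 0.79 and 3.16 log2, against 0.82 and 3.17 with them, and with the compared groups alone 0 of 11 and 1 of 4 passed. The defining B cell genes Ms4a1, Cd79a and Pax5 were not analysed here. Mast cells, which can carry granzymes, had 0 of 8 markers past the threshold, with scores of 2.21 to 3.86 with control antibody plus GSK343 and 2.01 to 3.32 with control antibody. All 8 estimates were above 0, with a median of 0.81 log2 (0.26 without the 3 libraries high in muscle markers). Among GSK343-treated tumors 2 of the 8 were lower with anti-CXCL10 (median -1.1), where 6.64% of all tested genes were lower. Of the 8, 0 were lower there without those 3 libraries or with the compared groups alone. Of 6 neutrophil markers 1 was higher with GSK343 and control antibody, and of 5 plasmacytoid dendritic cell markers 1 was higher. The plasmacytoid dendritic cell genes Siglech, Ccr9 and Klk1 were not analysed here, so the 5 tested genes do not single out that cell type. Of 15 tested skeletal muscle markers 1 was higher by limma, with a median of 2.56 log2, and 0 of 9 keratinocyte markers passed. Of 12 hepatocyte and hepatoma markers 4 were lower and 0 higher, with scores of 5.36 to 5.83 with control antibody plus GSK343 and 5.86 to 6.48 with control antibody. With those 3 libraries left out, none of the neutrophil, plasmacytoid dendritic cell, skeletal muscle or hepatocyte markers passed; with the compared groups alone 0, 1 and 0 of the first 3 lists were higher and 2 hepatocyte and hepatoma markers were lower.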

How the data were processed

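Per the labels' protocols, poly-A RNA of subcutaneous HEPA1-6 tumors was sequenced. The deposited values are FPKM per gene, a unit read from the values, since sums weighted by gene length varied by 0.79% between libraries (coefficient of variation) and plain sums by 4.06%. The submitters' processing notes list StringTie 1.3.3b, HTSeq 0.6.0, HISAT2 2.1.0, TopHat2 2.1.0 and Trimmomatic 0.33, and the builds mm10 and GRCm38, with no role for any. Every row of the deposited table had 1 FPKM or more in at least 4 libraries.

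Of 14646 rows, those sharing a gene ID (8 IDs) were summed, giving 14633 genes. A gene was tested if at least 5 libraries reached 1 FPKM (14385 genes; 248 removed). Under R 4.3.3 with statmod 1.5.0, limma 3.58.1 fitted log2(FPKM + 1) to 4 group means over 19 libraries, with trended and robust moderation. This scale understates changes of low genes. Adjusted p is Benjamini-Hochberg over all genes tested, with a threshold of 0.05. Marker scores are means of log2(FPKM + 1) over a list and were compared by exact two-sided permutation tests over samples. The limma code was tested on simulated data.

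The 6 members, the lists and the motifs were chosen with earlier results of these data known, and the motifs with the promoter sequences in view. Named genes are the members, Esm1, up to 4 genes per list by p for GSK343 with control antibody, and the 3 genes most like each member. Genes named beyond these were picked with their values in view. Replicate numbers were not used to pair libraries in the main fit. Deviations of same-numbered libraries correlated at -0.199 to 0.318 over 27 pairs, 12 of them over 0.1. Libraries with different numbers were not compared in this way, so whether the numbers pair libraries was not tested. Alternatives were the pseudocount, filter, scaling, moderation, compared groups alone, a replicate block, leaving out each library, and skeletal muscle markers (the 3 highest libraries left out, or the score as a covariate). Leave-one-out for the scores, the muscle covariate for relative levels, and the list counts under the muscle settings and with the compared groups alone were chosen after seeing the data. No sample column of the table was left unused. Some genes of the lists are not reported here.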

Additional observations from a re-analysis of the deposited data

Results flagged for a closer look

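In 2 of 24 sets (a gene in a group), 1 library stood apart from the rest of its group; chance alone sets apart about 1 in 20. Both are control antibody replicate 3, highest for Gzmb at 16.0 FPKM, with the other 3 libraries at 9.09 to 9.83 FPKM, and highest for Prf1 at 4.86 FPKM, with the others at 2.07 to 2.44 FPKM.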

How the results depend on the processing

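For GSK343 with control antibody, 787 genes and 5 members passed; 233 and 0 passed with the compared groups alone, 15 and 0 without the 3 libraries high in muscle markers, and 6 and 0 with the muscle score as a covariate. For anti-CXCL10 with GSK343 (1456 and 2), the muscle settings gave 497 and 0 (libraries left out) and 138 and 0 (covariate), the stricter filter gave 938 genes, and 1 member passed with the compared groups alone. With the replicate block, 4 members passed there (Gzma, Nkg7, Gzmb and Ctsw), 57 genes in the interaction, and 0 for anti-CXCL10 without GSK343 and for anti-CXCL10 plus GSK343 against control antibody; it changed no other member call among the comparisons of levels. The interaction (9 genes) had 5 with the stricter filter, 1 without the muscle libraries and 0 with the muscle covariate. Anti-CXCL10 without GSK343 (2 genes) had 1 with the compared groups alone and 0 without the muscle libraries, and anti-CXCL10 plus GSK343 against control antibody (1 gene) had 5 and 2 under those settings.
Relative to the lymphocyte score, GSK343 with control antibody had 1 member past the threshold (0 in the report) at pseudocount 5, with the replicate block and in both muscle settings, and anti-CXCL10 with GSK343 had 2 with pseudocount 5; against 11815 genes called there, 2804 passed without the muscle libraries and 6700 with the covariate.
Leaving out 1 library gave 299 to 1389 genes and 1 to 6 members for GSK343 with control antibody, 837 to 1829 and 1 to 5 for anti-CXCL10 with GSK343, 0 to 476 for the interaction, 0 to 1 for GSK343 with anti-CXCL10, 0 to 2 for anti-CXCL10 without GSK343 and for anti-CXCL10 plus GSK343 against control antibody, and 0 to 1 member for both relative comparisons. The NK cell score difference was 0.88 to 1.22 for GSK343 with control antibody and -0.97 to -0.62 for anti-CXCL10 with GSK343.
Members changed sign 34 times, never from a called value. With 1 library left out, GSK343 with anti-CXCL10 ran from -0.05 to 0.31 for Gzma and from -0.12 to 0.16 for Prf1, anti-CXCL10 without GSK343 from -0.25 to 0.10 for Gzma and from -0.01 to 0.31 for Nkg7, and anti-CXCL10 plus GSK343 against control antibody from -0.16 to 0.27 for Gzma (-0.02 with the replicate block). Relative to the score, GSK343 with control antibody ran from -0.06 to 0.38 for Gzma and from -0.08 to 0.13 for Ctsw, and anti-CXCL10 with GSK343 from -0.22 to 0.07 for Gzmb and from -0.24 to 0.07 for Prf1. Other settings turned Gzmk in the interaction (0.23 without the muscle libraries, 0.16 with the covariate) and in anti-CXCL10 with GSK343 (0.40 and 0.23), relative Ctsw with control antibody (-0.04 at pseudocount 0.1, -0.02 with the replicate block, -0.16 and -0.11 in the muscle settings) and relative Prf1 in anti-CXCL10 with GSK343 (0.03 at pseudocount 0.1, 0.01 with the T cell list alone). The causes were not tested. Depth is unknown, so the precision of low values cannot be given.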
